A study of Mus musculus with 15 samples.

Results

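*Mycn* and the MYC-MAX network were examined in erythro-myeloid progenitors (EMPs) of the mouse yolk sac (YS). The 10 genes are *Mycn*, *Myc*, *Max*, *Mlx*, *Mxd1*, *Mxi1*, *Mxd3*, *Mxd4*, *Mnt* and *Mga*, out of 17454 genes measured. They were taken because *Mycn* was low in the libraries labelled Vav-Ezh2-KO, so *Mycn* was selected on its values in that comparison, and the other 9 genes are its relatives and partners. All 10 were above 0.2 RPKM in at least 1 library and entered the fits. RPKM is the number of reads on a gene, scaled by transcript length and by library depth.

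The study asked how EMPs change when *Ezh2*, the histone methyltransferase of polycomb repressive complex 2, is lost in endothelium or in blood cells. RNA-seq was made from EMPs sorted from individual YS at E10.5, in 15 libraries, with a gate that left out lineage-positive cells. An antibody to TER119, which the study uses to mark primitive erythroid cells, is in its list for sorting. All embryos were Ezh2fl/fl on a C57BL/6 background, the WT controls included. The 5 Tie2-Ezh2-KO libraries (genotype Tie2-CreTg/+) carry a Cre that is active in endothelium, from which EMPs emerge, and the 5 Vav-Ezh2-KO libraries (Vav-CreTg/+) carry Vav-iCre, which is active from the onset of the blood cell stage. The 3 Tie2-Ezh2-WT and 2 Vav-Ezh2-WT libraries lacked the transgene and served together as 5 WT controls for both knockouts, so the comparisons share their controls. Libraries held 10407398 to 41025074 reads on genes, with a median of 16091836. The labels do not assign libraries to the independent experiments, so experiment and genotype cannot be told apart.

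MYC and MYCN are transcription factors that bind DNA as dimers with MAX, mostly at the E-box CACGTG, and drive growth, ribosome production and cell division. MXD proteins, MNT and MGA compete for MAX and repress the same sites, MXD and MNT by recruiting SIN3 corepressors, while MLX pairs with some of the MXD proteins and with the glucose-sensing factors MLXIP and MLXIPL. In blood, MYC and MYCN act partly redundantly in stem and progenitor cells, and MXD proteins accompany the exit from division.

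*Ezh2* itself, on chromosome 6, was measured at 36.9, 39.5 and 30.1 RPKM in Tie2-Ezh2-WT replicates 4, 10 and 12 and at 42.0 and 41.5 RPKM in Vav-Ezh2-WT replicates 4 and 6. In Tie2-Ezh2-KO the values were 27.8, 26.2, 24.8, 29.5 and 26.5 RPKM (replicates 7, 9, 11, 13 and 17), and those labelled Vav-Ezh2-KO (replicates 1, 9, 10, 26 and 28) held 33.7, 42.4, 37.8, 38.1 and 34.0 RPKM. Libraries are given in this order for every gene. All 5 Tie2-Ezh2-KO libraries were below all WT libraries, whereas the Vav-Ezh2-KO libraries overlapped with WT. The Tie2-Ezh2-KO difference was -0.48 on the log2(RPKM + 0.2) scale (SE 0.12, limma adjusted p = 0.0418; two-sided exact permutation p = 0.00794, the smallest that 5 against 5 libraries allow). The limma call was lost in 11 of 21 alternatives, where adjusted p ranged from 0.0134 to 0.344 over all 21. These included limma-voom on recovered reads, the Tie2-Ezh2-WT controls alone, and leaving out Tie2-Ezh2-WT replicate 4 or 10, Vav-Ezh2-WT replicate 4 or 6, or Tie2-Ezh2-KO replicate 7, 11 or 17. In the libraries labelled Vav-Ezh2-KO the difference was -0.02 (SE 0.11, limma adjusted p = 0.969). Their mean was 37.2 RPKM, against 41.7 RPKM in the 2 Vav-Ezh2-WT libraries alone. Every Vav-Ezh2-KO library except replicate 9 lay below both of these controls. A gene-level RPKM also counts reads from exons outside the floxed part, so it does not check the deletion. The study itself reports nearly complete recombination by a reporter and a loss of the floxed exon's transcript in EMPs of both lines.

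The MYC paralogs differed widely in level. *Mycn*, on chromosome 12 from 12936093 to 12941836 (GRCm38), was measured at 17.3, 11.7 and 11.7 RPKM in the Tie2-Ezh2-WT libraries and at 10.04 and 18.8 RPKM in the Vav-Ezh2-WT libraries. Tie2-Ezh2-KO values were 18.1, 11.5, 10.1, 18.8 and 17.7 RPKM. In the libraries labelled Vav-Ezh2-KO it was at 4.17, 5.02, 3.59, 7.03 and 6.83 RPKM. The highest Vav-Ezh2-KO value lay below the lowest value of the other 3 groups, while Tie2-Ezh2-KO and WT covered nearly the same range. Means were 13.9 ± 3.88 RPKM (SD, n = 5) in WT, 15.2 ± 4.10 (SD, n = 5) in Tie2-Ezh2-KO and 5.33 ± 1.55 (SD, n = 5) in Vav-Ezh2-KO, the last 2.61-fold below WT. Since this contrast chose the gene, the Vav-Ezh2-KO difference of -1.36 on the log2(RPKM + 0.2) scale (SE 0.22) is a description without a test. Of the 10 genes, *Mycn* alone had every Vav-Ezh2-KO library below every WT library, a pattern held by 0.806% of all 13646 genes tested (110 genes). The same 5 WT libraries entered the choice, so the *Mycn* difference in Tie2-Ezh2-KO, 0.13 (SE 0.22), is also given without a test. It ranged from 0.0222 to 0.263 when 1 library was left out. The *Mycn* values rest on 157 to 1307 reads per library. In bulk RNA, fewer cells that express a gene and less RNA per cell cannot be told apart.

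*Myc*, on chromosome 15, encodes the paralog that most dividing cells use, and it was the most abundant of the 10 genes. It was measured at 215, 199 and 169 RPKM in the Tie2-Ezh2-WT libraries, at 223 and 234 RPKM in the Vav-Ezh2-WT libraries, and at 220, 166, 150, 169 and 162 RPKM for Tie2-Ezh2-KO. The libraries labelled Vav-Ezh2-KO held 180, 147, 175, 180 and 179 RPKM. Both knockouts overlapped with WT, with Tie2-Ezh2-WT replicate 12 the lowest control and Tie2-Ezh2-KO replicate 7 the highest knockout library. The Tie2-Ezh2-KO difference was -0.27 (SE 0.12) and did not pass the threshold (limma adjusted p = 0.435; two-sided exact permutation p = 0.0794). The Vav-Ezh2-KO difference, given without a test, was also -0.27 (SE 0.10). Against the 2 Vav-Ezh2-WT libraries alone it was -0.41, and all 5 Vav-Ezh2-KO libraries lay below both of these controls. The share of all genes with this pattern against 2 controls was not counted. With controls of the Tie2 line alone, the Tie2-Ezh2-KO difference was -0.17 (limma adjusted p = 1, range 0.173 to 1 over 21 alternatives).

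Because *Myc* was at 208 ± 25.3 RPKM (SD, n = 5) in WT EMPs, *Mycn* contributed a small part of the RNA of the pair. Per length, *Mycn* made up 4.30% to 7.47% of *Mycn* plus *Myc* in the WT libraries, 6.32% to 9.99% in Tie2-Ezh2-KO and 2.01% to 3.76% in those labelled Vav-Ezh2-KO. The sum of the pair was 222 ± 27.5 RPKM (SD, n = 5) in WT, 189 ± 29.7 (SD, n = 5) in Tie2-Ezh2-KO and 177 ± 14.8 (SD, n = 5) in Vav-Ezh2-KO. The share is computed from the *Mycn* values that chose the gene, so its low level in Vav-Ezh2-KO follows from that choice. The summed level in Vav-Ezh2-KO (152 to 187 RPKM) overlapped with the 5 WT libraries and lay below both Vav-Ezh2-WT libraries (233 and 253 RPKM). No share of all genes was counted for this pattern either.

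*Max*, on chromosome 12 from 76937269 to 76962323, encodes the shared partner of the MYC, MXD, MNT and MGA proteins. It was measured at 9.06, 13.9 and 6.32 RPKM in the Tie2-Ezh2-WT libraries, and at 17.3 and 13.6 RPKM in the Vav-Ezh2-WT libraries. Tie2-Ezh2-KO values were 9.26, 8.71, 7.84, 5.11 and 7.16 RPKM. The libraries labelled Vav-Ezh2-KO held 15.3, 16.3, 17.5, 14.1 and 15.8 RPKM. Each knockout overlapped with the WT libraries of its own line, and Tie2-Ezh2-WT replicate 10 was the 1 library of the Tie2 line that reached the range of the Vav line. Against all 5 WT libraries the Tie2-Ezh2-KO difference was -0.59 (SE 0.25, limma adjusted p = 0.377; two-sided exact permutation p = 0.0873), and the Vav-Ezh2-KO difference, without a test, was 0.46 (SE 0.22). Against the WT libraries of the same line alone these were -0.31 and 0.04, and leaving out 1 library gave -0.80 to -0.44 for Tie2-Ezh2-KO.

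*Mlx* encodes a MAX-like partner protein and was the next most abundant gene after *Myc*. It ranged from 30.9 to 42.0 RPKM in WT, from 32.7 to 40.4 RPKM in Tie2-Ezh2-KO and from 33.7 to 46.5 RPKM in Vav-Ezh2-KO. All groups overlapped, and the Tie2-Ezh2-KO difference was -0.04 (SE 0.12, limma adjusted p = 0.969).

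**Figure D1:**
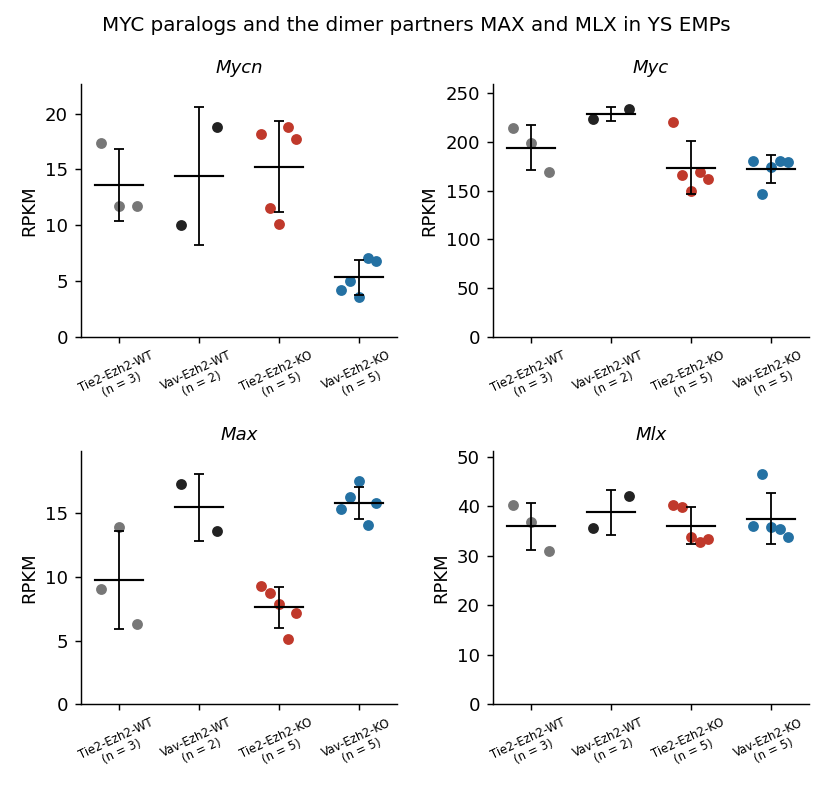
RPKM (vertical axis, linear) of *Mycn*, *Myc*, *Max* and *Mlx* in each library of the 4 groups (horizontal axis); points are libraries, lines are group means and bars are the SD. *Mycn* lies between 3.59 and 7.03 RPKM in the libraries labelled Vav-Ezh2-KO and at 10.04 RPKM or more in the others, and *Max* is lower in most libraries of the Tie2 line than in those of the Vav line.

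The genes for repressors that bind MAX were expressed at low levels. *Mxi1* and *Mxd4*, MXD family members often present in resting and differentiating cells, had means of 5.34 ± 0.824 and 4.90 ± 0.995 RPKM (SD, n = 5) in WT EMPs. *Mxd1*, induced on myeloid differentiation, followed at 2.06 ± 0.505 RPKM (SD, n = 5), and *Mxd3*, which is expressed in proliferating cells, at 1.36 ± 0.792 RPKM (SD, n = 5). *Mga*, whose large protein binds MAX and also carries a T-box domain, was at 1.40 ± 0.193 RPKM (SD, n = 5). *Mnt*, a widely expressed MYC antagonist in other tissues, was the lowest at 0.262 ± 0.0392 RPKM (SD, n = 5) and rested on 10 to 64 reads per library. What difference could be detected at this depth was not tested.

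In order of their WT level the genes were *Myc*, *Mlx*, *Mycn*, *Max*, *Mxi1*, *Mxd4*, *Mxd1*, *Mga*, *Mxd3* and *Mnt*. *Myc* and *Mlx* stood clear of their neighbours. *Mycn* and *Max* lay within their spread of each other, as did *Mxi1* and *Mxd4*, and *Mxd1*, *Mga* and *Mxd3*. In the libraries labelled Vav-Ezh2-KO, *Max* (15.8 ± 1.25 RPKM, SD, n = 5) stood above *Mycn*, and *Mycn* was within the spread of *Mxi1* (5.94 ± 1.13 RPKM, SD, n = 5) and *Mxd4* (4.96 ± 1.01 RPKM, SD, n = 5).

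Among the repressors, *Mxd4* was at 4.16, 5.36 and 4.36 RPKM in the Tie2-Ezh2-WT libraries, at 6.44 and 4.16 RPKM in the Vav-Ezh2-WT libraries, and at 3.83, 2.44, 2.92, 3.00 and 4.95 RPKM for Tie2-Ezh2-KO. Of these Tie2-Ezh2-KO libraries 4 lay below every WT library and replicate 17 lay among them. The difference was -0.51 (SE 0.23, limma adjusted p = 0.426; two-sided exact permutation p = 0.0556). *Mxd1* ranged from 1.52 to 2.80 RPKM in WT and from 0.407 to 1.74 RPKM in Tie2-Ezh2-KO, with a difference of -0.63 (SE 0.34, limma adjusted p = 0.582; two-sided exact permutation p = 0.0556). Its lowest value, in Tie2-Ezh2-KO replicate 9, came from 29 reads, and without this library the difference was -0.32.

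*Mxd3* was the most variable of the 10 genes. It ranged from 0.414 to 2.09 RPKM in WT and was at 1.11, 4.08, 5.40, 0.976 and 1.72 RPKM for Tie2-Ezh2-KO. Replicates 9 and 11 were above all WT libraries and the other 3 were among them, and the difference of 0.78 (SE 0.50) did not pass the threshold (limma adjusted p = 0.703). Leaving out 1 library gave 0.467 to 1.03. The same replicates 9 and 11 had the highest summed level of primitive erythroid markers, and the part of these cells in the *Mxd3* values was not tested.

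*Mxi1*, *Mga* and *Mnt* overlapped between Tie2-Ezh2-KO and WT, with differences of -0.11 (SE 0.18), 0.20 (SE 0.25) and -0.04 (SE 0.24) and limma adjusted p = 0.937, 0.903 and 0.986. In the libraries labelled Vav-Ezh2-KO the 6 repressor genes differed from WT by -0.08 to 0.14, each less than its standard error, and all overlapped with WT. Against the 2 Vav-Ezh2-WT libraries alone *Mga* was at -0.25, with all 5 Vav-Ezh2-KO libraries (1.15 to 1.43 RPKM) below both controls (1.53 and 1.65 RPKM). How many of all genes lay below 2 controls in this way was not counted. The summed level of the 6 genes was 15.3 ± 1.62 RPKM (SD, n = 5) in WT, 14.3 ± 2.10 (SD, n = 5) in Tie2-Ezh2-KO and 15.7 ± 2.54 (SD, n = 5) in Vav-Ezh2-KO, within the spread of the libraries.

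**Figure D2:**
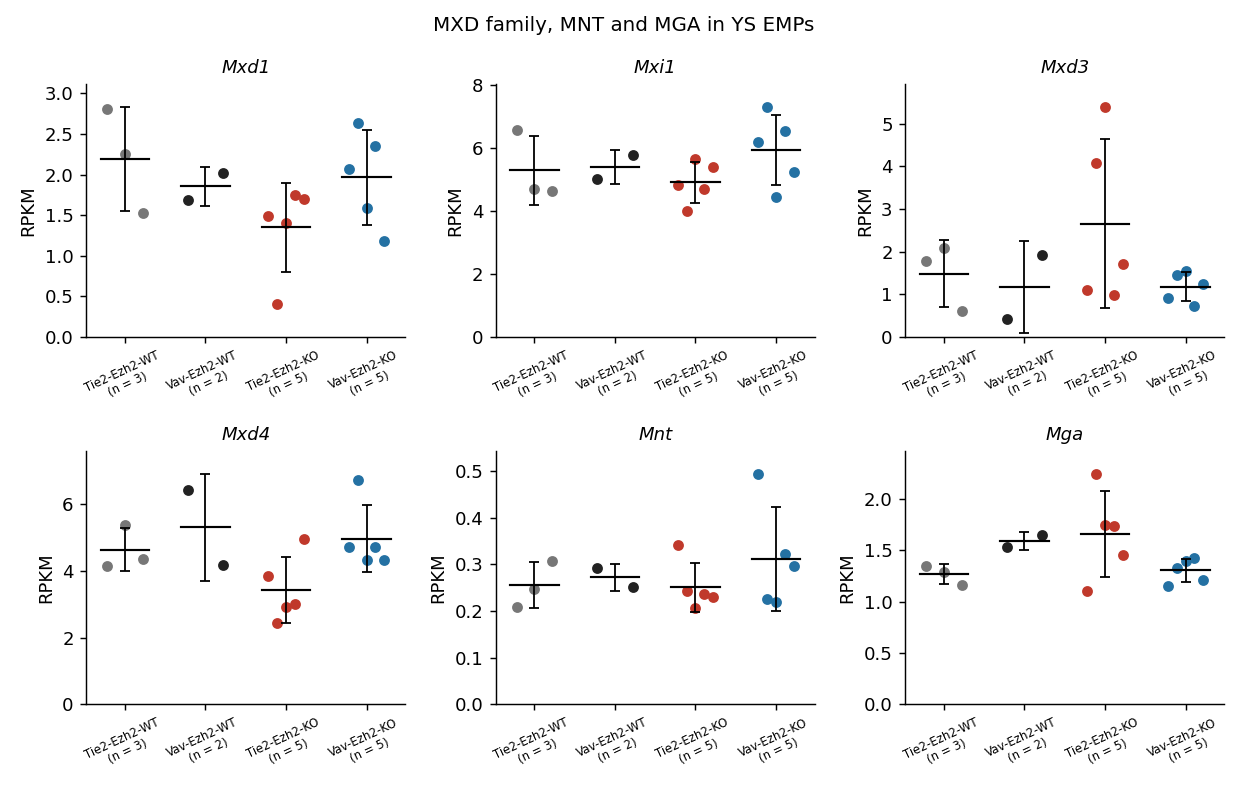
RPKM (vertical axis, linear) of *Mxd1*, *Mxi1*, *Mxd3*, *Mxd4*, *Mnt* and *Mga* in each library of the 4 groups (horizontal axis); points are libraries, lines are group means and bars are the SD. Every gene overlaps between each knockout and WT, and *Mxd3* reaches 4.08 and 5.40 RPKM in 2 Tie2-Ezh2-KO libraries.

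Taking the 10 genes together, 0 passed the threshold in Tie2-Ezh2-KO against WT by limma, where 2.73% of all genes tested did (386 of 14154, 343 higher and 43 lower). *Mycn* is counted among the 10, although its WT libraries entered the choice. At an unadjusted p under 0.05 there were 3 of the 10 by limma (*Myc*, *Max* and *Mxd4*), where 10.97% of all genes were (1552 of 14154), and limma-voom on recovered reads called 0, with 0 at an unadjusted p under 0.05 (11.4% of all genes). The limma count of 3 also fell to 0 with the Tie2-Ezh2-WT controls alone. It was 0 as well without Tie2-Ezh2-WT replicate 10, Vav-Ezh2-WT replicate 4 or Tie2-Ezh2-KO replicate 13. In none of the 10 were the Tie2-Ezh2-KO and WT libraries fully apart, against 4.01% of all genes (567 of 14154). The median difference of the 10 genes was -0.07, beside 0.01 over all genes tested, with 3 above 0 and 7 below. In the libraries labelled Vav-Ezh2-KO the median of the 10 was -0.00346, beside -0.02 over all genes, with 5 above 0 and 5 below.

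**Figure D3:**
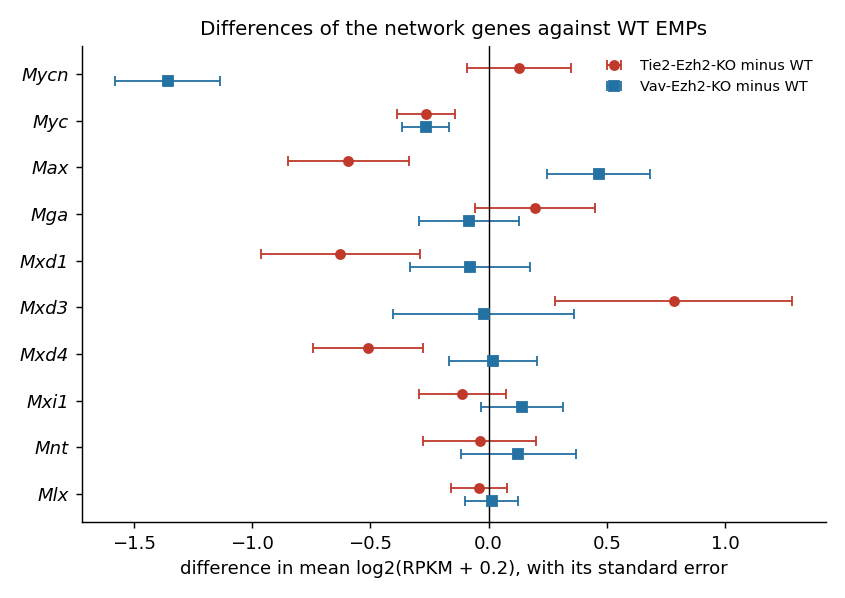
Difference in mean log2(RPKM + 0.2) from the 5 WT libraries (horizontal axis) for each of the 10 genes (vertical axis), in Tie2-Ezh2-KO (circles) and Vav-Ezh2-KO (squares, without a test); whiskers are standard errors. *Mycn* is at -1.36 in Vav-Ezh2-KO and 0.13 in Tie2-Ezh2-KO, and *Max* at 0.46 and -0.59.

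Among the 4 family genes outside the 10, *Bmyc* alone passed in Tie2-Ezh2-KO by limma. *Bmyc*, on chromosome 2 from 25706879 to 25707721, encodes a short MYC relative that lacks the DNA-binding and dimerization region. It was measured at 29.7, 39.0 and 35.0 RPKM in the Tie2-Ezh2-WT libraries, at 38.0 and 41.6 RPKM in the Vav-Ezh2-WT libraries, and at 63.9, 61.2, 61.7, 58.6 and 61.3 RPKM for Tie2-Ezh2-KO. The libraries labelled Vav-Ezh2-KO held 37.1, 48.9, 51.5, 45.2 and 40.6 RPKM. All Tie2-Ezh2-KO libraries were above all others, while Vav-Ezh2-KO overlapped with WT. *Bmyc* rose by 0.75 on the log2(RPKM + 0.2) scale in Tie2-Ezh2-KO (SE 0.11, limma adjusted p = 0.00107; two-sided exact permutation p = 0.00794, the smallest possible), from 36.7 ± 4.54 to 61.3 ± 1.89 RPKM (SD, n = 5 each), and passed in all 21 alternatives (adjusted p 0.000304 to 0.0148). In Vav-Ezh2-KO the difference was 0.28 (SE 0.12, limma adjusted p = 0.587). The difference between both effects, each against the WT of its own Cre line, was 0.68 (SE 0.18) and did not pass the threshold (limma interaction, adjusted p = 0.215).

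Primitive erythroid markers moved with the same group. Their summed level over the 8 genes measured of 10 listed was 151, 133 and 148 RPKM in the Tie2-Ezh2-WT libraries and 72.5 and 122 RPKM in the Vav-Ezh2-WT libraries. It was 319, 590, 865, 200 and 292 RPKM for Tie2-Ezh2-KO, and 88.7, 130, 66.0, 160 and 158 RPKM for Vav-Ezh2-KO. The embryonic globin *Hbb-bh1* was the most abundant, and 2 of the 8, *Hba-x* (6.33) and *Hbb-bh1* (1.18), rose in Tie2-Ezh2-KO, in all 5 libraries above all WT (limma). The part of primitive erythroid cells in the *Bmyc* result was not tested.

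*Mlxipl*, which encodes the glucose-sensing partner of MLX known as ChREBP, was listed at 0 RPKM in 4 WT libraries and at 0.0368 RPKM (2 reads) in Vav-Ezh2-WT replicate 4. Tie2-Ezh2-KO values were 0.275, 0.466, 0.111, 0.143 and 0.119 RPKM, from 6 to 26 reads. All Tie2-Ezh2-KO libraries were above all WT libraries, at a level near the filter, and the limma adjusted p was 0.0834 and ranged from 0.0115 to 0.299 over 20 alternatives. It passed under 5 of them, limma-voom among these. *Mlxip*, encoding the related factor MondoA, was at 2.004 ± 0.315 RPKM (SD, n = 5) in WT against 1.73 ± 0.411 (SD, n = 5) in Tie2-Ezh2-KO (limma adjusted p = 0.896), and the remaining MYC paralog, *Mycl1*, did not exceed 0.498 RPKM in any library.

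The factors that work with the network were measured next. Of 14 MYC coactivators, among them the TRRAP acetyltransferase and TIP60 complexes, 0 passed the threshold in Tie2-Ezh2-KO, with 3 above 0, 11 below and a median difference of -0.12. *Ruvbl2* and *Ruvbl1*, encoding the ATPases of that complex, were the most abundant at 417 ± 23.2 and 412 ± 23.1 RPKM (SD, n = 5) in WT against 430 ± 37.0 and 427 ± 42.2 RPKM (SD, n = 5) in the Tie2-Ezh2-KO libraries. Of 12 SIN3 and NCOR corepressor genes 0 passed, with 3 above 0, 9 below and a median of -0.03, and the histone chaperone gene *Rbbp7* and the deacetylase gene *Hdac2* led them at 464 ± 34.7 and 181 ± 5.31 RPKM (SD, n = 5) in WT against 456 ± 52.7 and 173 ± 4.03 RPKM (SD, n = 5) in the Tie2-Ezh2-KO libraries. Of 12 genes for the turnover of MYC proteins 0 passed, with 11 above 0, 1 below and a median of 0.11, beside 0.01 over all genes. *Aurka*, whose kinase stabilizes MYCN, was at 200 ± 33.0 RPKM (SD, n = 5) in WT against 216 ± 30.0 (SD, n = 5) in Tie2-Ezh2-KO. In Vav-Ezh2-KO these lists had medians of -0.06, -0.03 and -0.08.

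Genes that MYC proteins activate made up 2 lists. Of 26 genes for ribosome biogenesis and the nucleolus, 0 passed in Tie2-Ezh2-KO and the median was -0.01, with 10 above 0 and 16 below. In Vav-Ezh2-KO 0 of the 26 passed by limma, with 8 at an unadjusted p under 0.05, 7 of them lower and 1 (*Npm1*) higher, beside 7.93% of all genes, and the median was -0.08, with 9 above 0 and 17 below, beside -0.02 over all genes. Over 20 alternatives 1 to 8 of the 26 were lower and 0 to 1 higher at an unadjusted p under 0.05, with 1 and 0 with a common median or the Vav-Ezh2-WT controls alone. *Npm1*, encoding the abundant nucleolar protein nucleophosmin, was at 1570 ± 110 RPKM (SD, n = 5) in WT, 1502 ± 183 (SD, n = 5) in Tie2-Ezh2-KO and 1798 ± 109 (SD, n = 5) in Vav-Ezh2-KO. *Nop56*, encoding a core protein of box C/D small nucleolar ribonucleoproteins, was at 485 ± 47.3, 525 ± 59.1 and 402 ± 21.6 RPKM (SD, n = 5 each) in the same order. In Vav-Ezh2-KO the *Npm1* and *Nop56* differences were 0.20 (SE 0.08, limma adjusted p = 0.604) and -0.26 (SE 0.08, limma adjusted p = 0.542), and neither passed. Vav-Ezh2-WT means, 1657 and 435 RPKM, lay nearer to Vav-Ezh2-KO than the Tie2-Ezh2-WT means of 1512 and 518 RPKM. Both differences are therefore smaller against the WT of the same line.

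Of 36 activated targets in metabolism, translation and cell cycle, 1 passed in Tie2-Ezh2-KO, and the median was 0.01. It was *Ccnd1*, which encodes the G1 cyclin D1 and is also a known Wnt target. *Ccnd1* was at 0.481, 0.733 and 0.719 RPKM in the Tie2-Ezh2-WT libraries, at 0.584 and 1.12 RPKM in the Vav-Ezh2-WT libraries, and at 1.64, 2.499, 2.28, 2.57 and 2.57 RPKM for Tie2-Ezh2-KO. The libraries labelled Vav-Ezh2-KO held 0.289, 0.300, 0.453, 1.35 and 0.156 RPKM. Tie2-Ezh2-KO was above all WT libraries, and 4 of the 5 Vav-Ezh2-KO libraries were below all of them. *Ccnd1* rose by 1.46 in Tie2-Ezh2-KO (SE 0.27, limma adjusted p = 0.00740, 0.00286 to 0.0268 over 21 alternatives; two-sided exact permutation p = 0.00794), and the Vav-Ezh2-KO difference was -0.56 (SE 0.37, limma adjusted p = 0.718). The lactate dehydrogenase gene *Ldha* and the spermidine synthase gene *Srm*, the most abundant of this list, were at 2621 ± 109 and 1293 ± 42.6 RPKM (SD, n = 5) in WT against 2323 ± 422 and 1320 ± 131 RPKM (SD, n = 5) in the Tie2-Ezh2-KO libraries. In Vav-Ezh2-KO the list had a median of -0.07, with 13 genes above 0 and 23 below.

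Of 15 genes reported as repressed by MYC or MYCN, 1 passed in Tie2-Ezh2-KO and the median was 0.25. *Cdkn1c*, an imprinted gene for a cyclin-dependent kinase inhibitor, was at 4.70, 1.89 and 1.996 RPKM in the Tie2-Ezh2-WT libraries, at 0.415 and 2.503 RPKM in the Vav-Ezh2-WT libraries, and at 12.7, 5.96, 9.80, 8.58 and 8.67 RPKM for Tie2-Ezh2-KO. In those labelled Vav-Ezh2-KO it was at 0.602, 1.29, 0.978, 1.43 and 0.251 RPKM. All Tie2-Ezh2-KO libraries were above all others, and Vav-Ezh2-KO overlapped with WT. *Cdkn1c* rose by 2.14 in Tie2-Ezh2-KO (SE 0.42, limma adjusted p = 0.0115, 0.00362 to 0.0403 over 21 alternatives; two-sided exact permutation p = 0.00794), and the Vav-Ezh2-KO difference was -1.04 (SE 0.49, limma adjusted p = 0.638). The most abundant genes of the list, *Ndrg3* and *Gadd45g*, were at 35.4 ± 5.06 and 26.8 ± 11.5 RPKM (SD, n = 5) in WT against 31.8 ± 8.10 and 30.8 ± 7.54 RPKM (SD, n = 5) in the Tie2-Ezh2-KO libraries. In Vav-Ezh2-KO the list had a median of 0.09.

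Over all these lists, with the family genes and the neighbours of *Mycn*, 3 of 122 genes tested passed in Tie2-Ezh2-KO (*Bmyc*, *Ccnd1* and *Cdkn1c*), near the 2.73% of all genes. The lists were written with the study's own results for this comparison known, so this count is not independent of them. In Vav-Ezh2-KO 0 of 120 passed by limma, where 1 of 13646 genes did (0.00733%). At an unadjusted p under 0.05 there were 16 of the 120, beside 7.93% of all genes (1082 of 13646), and limma-voom on recovered reads called 0, with 19 at an unadjusted p under 0.05, beside 8.77% of all genes. This count ranged from 6 to 25 over 20 alternatives. It was 6 without Tie2-Ezh2-WT replicate 10 and 7 with a common median or eBayes without trend. With the Vav-Ezh2-WT controls alone it was 8, beside 738 of all 13284 genes tested. The count therefore depends on single libraries, on the controls, on the scaling and on the settings of the fit. The interaction of both knockouts was past the threshold for 0 of 131 genes, *Mycn* left out, with 10 at an unadjusted p under 0.05 (6.54% of all 14394 genes), and limma-voom called 0 with 11 (7.25% of all genes). The count at an unadjusted p ranged from 5 to 19 when 1 library was left out.

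**Figure D4:**
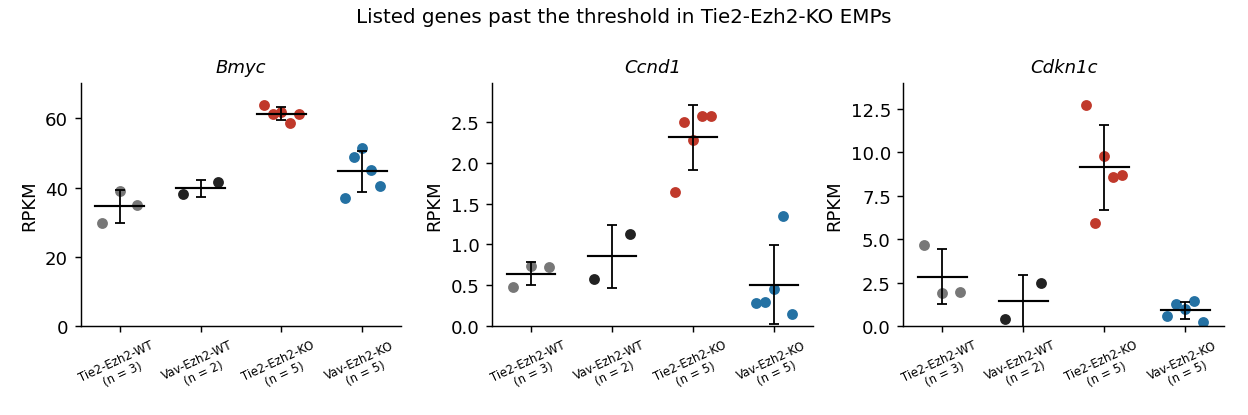
RPKM (vertical axis, linear) of *Bmyc*, *Ccnd1* and *Cdkn1c*, the listed genes past the threshold in Tie2-Ezh2-KO, in each library of the 4 groups (horizontal axis); points are libraries, lines are group means and bars are the SD. *Bmyc* lies between 58.6 and 63.9 RPKM in Tie2-Ezh2-KO and at 51.5 RPKM or less in the other libraries.

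The 3 neighbours of *Mycn* on chromosome 12 were *Ddx1*, *Nbas* and *Fam49a*, of which *Ddx1* lies nearest on the side of higher coordinates, starting at 13219307. *Ddx1*, an RNA helicase gene often co-amplified with *MYCN* in neuroblastoma, was at 256 ± 26.3 RPKM in WT, 263 ± 40.5 in Tie2-Ezh2-KO and 222 ± 16.7 in Vav-Ezh2-KO (SD, n = 5 each). *Fam49a* was at 3.44 ± 0.829, 4.29 ± 0.587 and 2.55 ± 0.433 RPKM and *Nbas* at 1.09 ± 0.282, 1.04 ± 0.195 and 1.13 ± 0.407 RPKM (SD, n = 5 each) in the same order. Both knockouts overlapped with WT for all 3 genes, and 0 of the 3 passed in either comparison by limma, with 0 and 1 at an unadjusted p under 0.05 in Tie2-Ezh2-KO and Vav-Ezh2-KO.

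The genes whose pattern over the 15 libraries was most like that of *Mycn*, by Pearson r of log2(RPKM + 0.2) among 6863 other genes with a mean of at least 5 RPKM, were *Gimap6* (r = 0.89), *Homer3* (0.89), *Bysl* (0.86), *Brf1* (0.85) and *Polr3g* (0.84). The most opposite were *Mrps36* (-0.82), *Gas5* (-0.81) and *Nt5c3* (-0.81). These are descriptions without a p, since *Mycn* was chosen for its pattern and the points share their 4 groups. *Gimap6*, for example, was at 48.7 ± 12.7 RPKM in WT, 44.5 ± 9.38 in Tie2-Ezh2-KO and 25.1 ± 3.62 in Vav-Ezh2-KO (SD, n = 5 each). With the means of pooled WT and of each knockout taken out, r was 0.66 for *Gimap6*, 0.79 for *Homer3* and 0.33 for *Polr3g*. None of the 5 remained among the 5 most alike.

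Since E-boxes are where MYC, MXD and MNT dimers bind, the promoters of the network itself were searched for CACGTG, a palindrome that reads the same on both strands. RefSeq promoter entries of GRCm38.p6, 250 bases before to 50 after the start of transcription, were found for 9 of the 10 genes (11 regions), with none for *Myc*. The motif was in 4 of the 11 regions, beside 7.15% of all 32851 regions, and each match is shown with the bases around it, the E-box in capitals. The matches were at bases -3 for *Max* (chr12:76962236-76962261, minus strand), -219 for *Mxd4* (chr5:34187914-34187939, minus strand), -123 for *Mnt* (chr11:74830791-74830816, plus strand) and -40 for *Mlx* (chr11:101087240-101087265, plus strand), counted from the start to the first base of the motif.
Max: tgagcccggtCACGTGttagggggcc
Mxd4: gctgggccacCACGTGctgttgctaa
Mnt: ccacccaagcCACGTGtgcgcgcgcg
Mlx: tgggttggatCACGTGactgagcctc
The regions of *Mycn*, *Mga*, *Mxd1*, *Mxd3* and *Mxi1* and that of *Bmyc* did not hold these letters. Of the other family genes, *Mlxipl* held them in 1 of its 2 regions, at -98 (chr5:135089782-135089807), and *Mycl1* and *Mlxip* did not. A match is a description of the sequence, and binding was not measured here.

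Markers of EMPs and of other cell types were measured in the same libraries. All 10 EMP markers were expressed, led by *Gfi1b*, with a summed level of 686 ± 59.5 RPKM in WT, 737 ± 48.8 in Tie2-Ezh2-KO and 659 ± 70.2 in Vav-Ezh2-KO (SD, n = 5 each). In Tie2-Ezh2-KO 7 of the 10 were below 0 (median -0.18) and 0 passed by limma, with 4 at an unadjusted p under 0.05, *Gfi1b* higher and *Fcgr3*, *Fcgr2b* and *Ptprc* lower. Cycling-cell genes, 12 in number and led by *Rrm2*, summed to 2242 ± 39.3, 2305 ± 60.2 and 2253 ± 95.1 RPKM (SD, n = 5 each) in the same order, and the Vav-Ezh2-KO libraries, where *Mycn* was low, overlapped with WT. Endothelial markers (9 measured, led by *Pecam1*) summed to 47.5, 49.9 and 46.3 RPKM and macrophage markers (10, led by *Cd68*, with *C1qa* at 0) to 21.2, 17.1 and 24.2 RPKM. In Tie2-Ezh2-KO 8 of the 9 endothelial markers were above 0 (median 0.38), with *Pecam1* (-0.62) below all WT libraries in 5 of 5, and 0 passed by limma, with 2 at an unadjusted p under 0.05. Mesenchymal markers (10, led by *Pdgfrb*) summed to 2.72, 2.74 and 2.24 RPKM. Neutrophil granule genes (10, led by *Mpo*, with *Ngp* and *Camp* at 0) summed to 1715 ± 351, 1103 ± 286 and 1712 ± 417 RPKM (SD, n = 5 each), and *Elane* (-2.20) and *Mpo* (-0.75) fell in Tie2-Ezh2-KO, as did *Gp1ba* (-0.94) among the megakaryocyte markers, each with 4 of 5 libraries below all WT (limma). Of the 8 neutrophil genes tested there 3 were above 0 and 5 below (median -0.15), and of the 10 megakaryocyte markers 2 and 8 (median -0.22). Of the 9 macrophage markers tested in Tie2-Ezh2-KO 2 were above 0 and 7 below (median -0.21). By limma 0 of them passed, with 2 lower at an unadjusted p under 0.05. *Amn* of the visceral endoderm rose by 3.01 in Tie2-Ezh2-KO, with 5 of 5 above all WT (limma). Of the 9 visceral endoderm markers tested there 9 were above 0 and 0 below (median 0.51), and *Amn* was the 1 that passed.

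Visceral endoderm markers (10, led by *Trf*) set 2 libraries apart, with sums of 211 RPKM in Tie2-Ezh2-WT replicate 4 and 317 RPKM in Tie2-Ezh2-KO replicate 7, against 14.8 to 41.6 RPKM in the other 13. Without these 2 libraries, an alternative chosen after seeing the data, 217 genes passed in Tie2-Ezh2-KO and 0 of the 10 network genes, and *Bmyc*, *Ccnd1* and *Cdkn1c* still passed. Vav-Ezh2-KO libraries, where *Mycn* was low, held 14.8 to 24.4 RPKM of these markers, with 0 of 8 tested above 0 and 8 below (median difference -1.05 from all 5 WT libraries, 0 passed by limma, 1 at an unadjusted p under 0.05), and WT libraries other than Tie2-Ezh2-WT replicate 4 held 22.4 to 28.9 RPKM.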

How the data were processed

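EMPs were sorted from individual YS (100 cells per library in the study's methods, 500 in the labels), and cDNA was amplified by 16 cycles of PCR, so reads are not independent molecules. The RPKM values deposited by the authors come from TopHat2 2.0.13 alignments to GRCm38 (1 per read) and featureCounts on RefSeq models. From these values, log2(RPKM + 0.2) was fitted with limma 3.58.1 (R 4.3.3, eBayes with trend) wherever any library compared exceeded 0.2 RPKM, and p was adjusted over all genes by Benjamini-Hochberg (threshold 0.05). Single genes were also tested by two-sided exact permutation over 252 divisions of the 10 libraries. Whole reads were recovered from the RPKM steps (at least 99.9981% of each total) for limma-voom. The code was tested on simulated data. The members and lists were chosen with earlier results of these data known. For the lists these included the study's comparison of Tie2-Ezh2-KO with WT. Named genes were *Ezh2*, the members and family genes, from each list the genes called in Tie2-Ezh2-KO and the 2 most abundant, the neighbours of *Mycn*, and the 5 genes most like and 3 most opposite to it. Some results under this rule are not reported here. Alternatives were 2 other pseudocounts, 2 other filters, 2 scalings, eBayes without trend, WT of the same Cre line, 1 fit of all 15 libraries, limma-voom and leaving out each library.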

Additional observations from a re-analysis of the deposited data

Results flagged for a closer look

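Within groups of 5 libraries, 45 gene and group pairs of the network, its family and *Ezh2* were examined for a library far from the others, measured as its gap to the nearest library over the range of the group, both on the log2(RPKM + 0.2) scale. Chance sets apart about 1 in 20 such groups. In the libraries labelled Vav-Ezh2-KO, replicate 9 stood apart for 3 genes, with the lowest *Myc* (147 RPKM, gap over range 0.848) and the highest *Mxd4* (6.72 RPKM, 0.799) and *Mlx* (46.5 RPKM, 0.793). *Mxd1* was low in Tie2-Ezh2-KO replicate 9 (0.407 RPKM, 0.835), *Mycl1* was high in Tie2-Ezh2-KO replicate 17 (0.498 RPKM, 0.746) and *Mlxip* was low in Vav-Ezh2-KO replicate 1 (1.25 RPKM, 0.791). *Mlxipl* stood apart in Vav-Ezh2-WT replicate 4 (0.0368 RPKM, 2 reads) and Vav-Ezh2-KO replicate 28 (0.0382 RPKM, 4 reads), since the other 4 libraries of each group were at 0.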

How the results depend on the processing

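The count of 386 genes in Tie2-Ezh2-KO became 230 with genes above 1 RPKM in at least 5 libraries, 187 with the Tie2-Ezh2-WT controls alone and 217 without both libraries high in visceral endoderm markers (chosen after seeing the data), each with fewer genes or libraries. Leaving out 1 library gave 262 to 438. The 10 network genes stayed at 0 calls in all 21 alternatives of Tie2-Ezh2-KO. In Vav-Ezh2-KO, where the 10 are given without a test, the listed genes stayed at 0 in all 20. For the interaction of the 131 genes the count ranged from 0 to 1, the 1 being *Ccnd1* without Vav-Ezh2-KO replicate 26. Scaling to a common median shifted the interaction of all genes from a median of 0.0629 to -0.0737. Of all genes, 23 had a higher and 3 a lower interaction, against 9 and 3 with quantile normalization and 2 and 0 with limma-voom. Leaving out 1 library gave 8 to 32 of these genes in all, and the other alternatives 2 to 32. In Vav-Ezh2-KO 1 was higher and 0 lower, against 1 and 1 with a common median. *Mycn* in Vav-Ezh2-KO ranged from -1.47 to -1.23 in the 20 alternatives. Against Vav-Ezh2-WT alone, *Max* moved to 0.0367 and *Mga* to -0.254; the cause was not tested. Of the 5 genes most like *Mycn*, 2 were shared with Spearman rho and 0 after taking out group means, with both WT groups pooled. *Bmyc*, *Ccnd1* and *Cdkn1c* passed in all 21 alternatives.

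Signs turned in both knockouts, and the cause was not tested. In Vav-Ezh2-KO (no test), leaving out 1 library gave *Mxd1* -0.187 to 0.0721, *Mxd3* -0.309 to 0.166, *Mxd4* -0.0921 to 0.119 and *Mlx* -0.0659 to 0.0604. In Tie2-Ezh2-KO none of the values that turned passed by limma. Against Tie2-Ezh2-WT alone they were *Mlx* (0.00596), *Aurka* (-0.0595), *Ddx1* (-0.0594) and *Nbas* (0.0624). *Mycl1* was at -0.0909 with a pseudocount of 0.05 and -0.148 with quantile normalization, where *Npm1* was at 0.0142. Scaling to a common median gave *Srm* -0.0119 and *Ddx1* -0.000193. Without the libraries high in visceral endoderm markers, *Ruvbl2* was at -0.00961 and *Srm* at -0.0136. Leaving out 1 library gave *Mlx* -0.103 to 0.00753, *Mycl1* -0.0478 to 0.165, *Rbbp7* -0.0817 to 0.0180, *Srm* -0.0192 to 0.0784, *Ddx1* -0.0478 to 0.0874 and *Nbas* -0.141 to 0.0432. The stricter filter gave no value for *Mnt*, *Mycl1* and *Mlxipl*, and neither did leaving out Tie2-Ezh2-KO replicate 17 for *Mycl1*.

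No paired analysis was possible because the groups compared share fewer than 2 replicate numbers. Controls of the same Cre line are 3 and 2 libraries, and libraries are not assigned to experiments. Levels below about 0.5 RPKM rest on few reads.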
